A study of Mus musculus with 2 samples.

Results

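Non-dividing classical monocytes were followed in the spleens of 1 wild-type and 1 sickle cell disease (SCD) mouse. The cells were chosen by their own counts of unique molecular identifiers (UMIs, each standing for 1 captured RNA molecule). A cell had to hold at least 10 UMIs in sum of Ly6c2, Ccr2, F13a1, Fn1 and Vcan, genes that mark classical monocytes. It could hold at most 2 UMIs of the non-classical monocyte genes Ace, Cd300e and Adgre4, at most 2 of Siglech (plasmacytoid dendritic cells) and at most 4 of the division genes Top2a, Mki67, Ube2c, Birc5, Cenpf and Nusap1. MHC class II genes (H2-Aa, H2-Ab1, H2-Eb1) had to be under 0.3% of its UMIs, S100a8 and S100a9 under 1%, the granule genes Elane, Mpo, Prtn3 and Ctsg under 0.5% and the macrophage genes C1qa, C1qb and C1qc under 0.5%. The rule took 997 of the 20060 cells that passed the quality filters (500 to 5000 genes, under 15% mitochondrial and under 30% ribosomal UMIs) and of 24292 cells in all. Of these 997 cells, 369 came from the wild-type and 628 from the SCD library.

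The study asked how chronic hemolysis alters the dendritic cell (DC) and macrophage compartments of the spleen. By the labels, both mice carried Hbatm1Paz, a targeted mouse alpha-globin locus, on both alleles. The wild-type control had 1 Hbbtm1Tow allele and was hemizygous for the human globin transgene Tg(HBA-HBBs)41Paz, and its red cells did not sickle. The SCD mouse (Berkeley model) had both alleles of Hbbtm1Tow and of the transgene, and its red cells sickled. Both mice were untreated and 12 to 16 weeks old. Animals of this model have a mixed genetic background, and both sexes were used in the study. The transgene is a germline one, so every cell of the animal carries it. Spleen cells were depleted with magnetic beads of cells other than DCs, red cells were lysed, and the remainder went into droplet-based 3′ sequencing. The monocytes described here are therefore those that came through a DC enrichment. With 1 library per group no test between the groups was possible. Intervals below are exact 95% intervals of counting error only, except those of list medians, which are the medians of their genes' bounds.

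Classical monocytes leave the bone marrow through the chemokine receptor Ccr2, circulate with high surface Ly6C and enter inflamed or damaged tissue. There they can become macrophages, including those that clear red cells, or cells with features of DCs, and in blood some turn into non-classical patrolling monocytes under the transcription factor Nr4a1. The spleen stores a pool of them in the red pulp. Fibronectin (Fn1), versican (Vcan) and the A subunit of coagulation factor XIII (F13a1) are secreted products by which they are known.

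The library totals were 97880318 UMIs (wild-type) and 189688217 UMIs (SCD). The chosen cells held 4114914 and 7776078 UMIs, with a median of 10950 UMIs and 3188 genes per wild-type cell and of 12137 UMIs and 3292 genes per SCD cell. Their median mitochondrial share was 2.997% and 3.41%. The libraries shared 88 barcodes, 1 of them in a chosen SCD cell. A doublet caller marked 2 of the chosen cells, both of them from SCD.

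The label was checked against genes that the rule did not use. Of 37 further classical monocyte genes in the files 33 were expressed, that is, they had 20 UMIs or more and 50 counts per 1000000 UMIs (CPM) or more in at least 1 library. Their summed level was 58912.5 CPM in wild-type and 55208.4 CPM in SCD cells. Csf1r, the receptor for macrophage colony-stimulating factor, was at 525.6 and 398.9 CPM. Lysozyme (Lyz2) reached 28368.5 and 24881.8 CPM, and was found in 96.2% and 97.45% of the cells once each was thinned to 2000 UMIs. The 10 T and NK cell markers summed to 23 and 63 UMIs, with Cd3e, Cd3g, Trac and Trbc2 at 0 in both libraries and Cd3d at 12 and 26. The 10 B cell markers summed to 185 and 242 UMIs (44.96 CPM and 31.1 CPM), with Pax5 at 0 in both and Cd79b at 114 and 179. Other marker lists were higher. The 10 plasmacytoid DC markers summed to 852.5 and 643.6 CPM and the 10 neutrophil markers to 383.2 and 1136.7 CPM. The 10 red pulp macrophage markers summed to 180.8 and 126.5 CPM.

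A few chosen cells went against the label. In 3 wild-type cells and 1 SCD cell, immunoglobulin kappa (Igkc) and the joining chain (Jchain) made up 41.1% to 60.7% of all UMIs. They met the marker threshold through Ly6c2 alone, with 0, 0, 0 and 1 UMIs of the other marker genes, and held no Csf1r UMI. Of the UMIs summed here they carried 2.65% in wild-type and 0.289% in SCD, and 99.9% and 98.3% of the Igkc and Jchain UMIs. The Jchain values below rest on them, and immunoglobulin genes are not described further. Left out, they changed the number of chosen cells to 366 and 627.

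Non-dividing classical monocytes made up 3.92% of the filtered wild-type cells (3.53% to 4.33%) and 5.90% of the filtered SCD cells (5.46% to 6.37%). The ratio was 1.51 (1.32 to 1.72). Both neighbouring sets differed by more. Dividing monocytes, which met the same rule but held over 4 division UMIs, were 0.393% (wild-type) and 3.91% (SCD) of cells, a ratio of 9.96 (7.11 to 14.4). Non-classical monocytes had at least 5 UMIs of Ace, Cd300e and Adgre4 and were not held to the minimum of 10 marker UMIs. They were 5.00% and 1.26% of cells, a ratio of 0.252 (0.207 to 0.306). Within the sum of these 3 sets, non-dividing classical monocytes were 369 of 877 wild-type cells (42.1%, 38.8% to 45.4%) and 628 of 1178 SCD cells (53.3%, 50.4% to 56.2%).

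**Figure D1:**
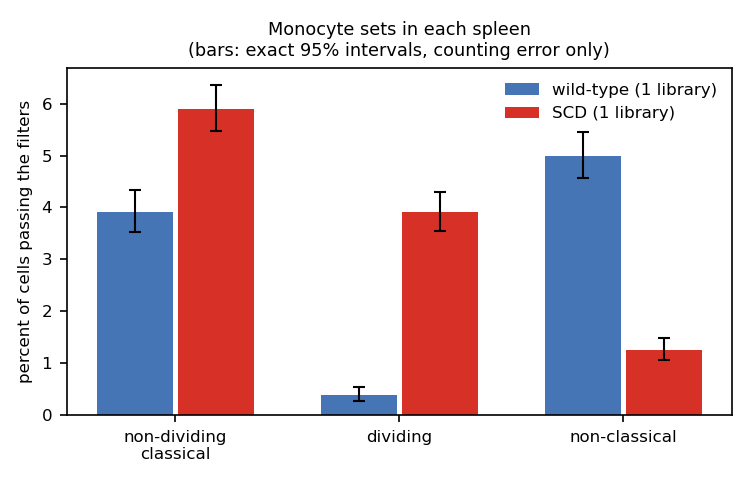
Share of filtered cells (percent, vertical axis) in the non-dividing classical, dividing and non-classical monocyte sets, in the wild-type (blue) and SCD (red) library, with exact 95% intervals of counting error. Dividing monocytes show the widest relative gap, 0.393% against 3.91%, and the non-dividing classical set differs by a ratio of 1.51.

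The share depended on where the line to dividing cells was drawn. Among the chosen cells the median number of division UMIs was 0 in wild-type and 1 in SCD, and at least 1 was held by 19.0% of cells in wild-type but by 65.1% in SCD. With no division UMI allowed, the shares were 3.17% and 2.06% and the ratio turned to 0.649. Just inside the limit (3 or 4 division UMIs) lay 3 wild-type and 118 SCD cells, and just outside it (5 or 6) 4 and 59. The limit on neutrophil transcripts also carried weight, since 345 wild-type and 2138 SCD cells failed the rule on S100a8 and S100a9 alone. Those cells were far from the limit, with S100a8 and S100a9 at a median of 33.9% and 36.5% of their UMIs. Camp was at 42706.8 and 39766.9 CPM in them and Csf1r at 43.5 and 22.9 CPM. The denominator mattered as well. Neutrophils were 49.0% (wild-type) and 71.7% (SCD) of all filtered cells, and over the other cells alone the shares were 7.68% and 20.9%.

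Across the 3092 expressed genes outside the rule, the summed UMIs of the chosen cells gave a median log2 ratio (SCD over wild-type, with 5 CPM added to both) of -0.06, with the middle of the distribution between -0.26 and 0.14. At or past 2-fold, 20 genes were higher in SCD (0.647%) and 48 lower (1.55%). Another 3024 genes (97.8%) lay within 2-fold. Of the genes past 2-fold, only 4 of the higher and 18 of the lower ones were at 50 CPM or more in both libraries, and the rest passed that minimum in 1 library. Without the 4 immunoglobulin-rich cells the counts were 18 higher and 46 lower, 43 of the lower genes being the same.

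**Figure D2:**
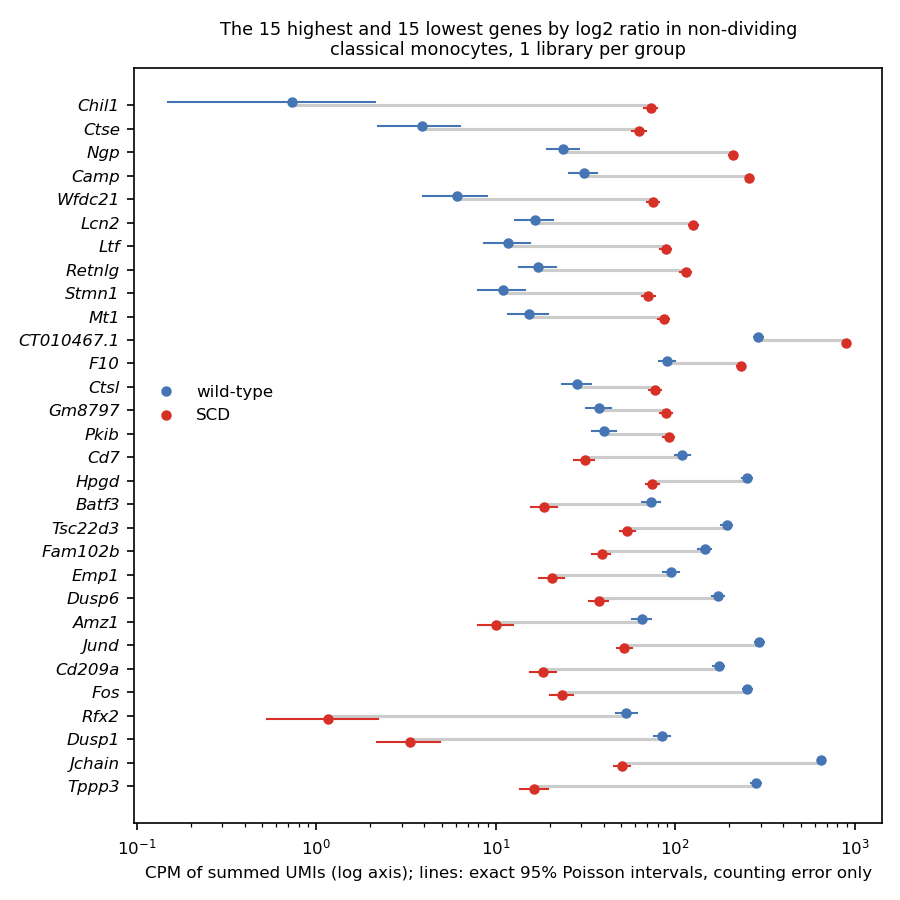
Level of the 15 highest and 15 lowest genes by log2 ratio (CPM of summed UMIs, log axis) in non-dividing classical monocytes of the wild-type (blue) and SCD (red) library, with exact 95% Poisson intervals. By log2 ratio with 5 CPM added, Chil1 is highest (0.729 against 72.8 CPM) and Tppp3 lowest (282 against 16.3 CPM). On the plotted levels the gap of Rfx2 is wider than that of Tppp3, at 53.5 against 1.16 CPM.

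Genes of granulocytes and of neutrophil-like monocytes led the genes that were higher in SCD. Chil1, a chitinase-like glycoprotein stored in neutrophil granules, had 3 UMIs in the wild-type and 566 UMIs in the SCD cells, a ratio of 99.8 (33.99 to 486). Ctse, the aspartic protease cathepsin E, rested on 16 and 487 UMIs, or 3.89 and 62.6 CPM. The secondary granule genes Ngp and Camp, the precursor of the antimicrobial cathelicidin peptide, had ratios of 8.79 (7.17 to 10.9) and 8.38 (7.001 to 10.1). Lactotransferrin (Ltf), which binds iron, was at 11.7 and 88.2 CPM, and lipocalin 2 (Lcn2), which binds bacterial iron carriers, at 16.5 and 126 CPM. Wfdc21 and Retnlg were at 6.08 and 17.2 CPM in wild-type and at 75.2 and 114 CPM in SCD cells.

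Of the 24 neutrophil-like monocyte genes, 13 were expressed, 8 of them past 2-fold higher (against 0.647% of all genes) and none lower. The median log2 ratio of the 13 was 2.48 (2.07 to 2.94), but all 8 passed the minimum only in the SCD library, where they are high, so the count and this median lean on that minimum. Over all 23 genes of the list with 20 UMIs in either library the median was 0.87. Members that were well expressed in both libraries lay closer together. Haptoglobin (Hp) was at 554.3 and 908.3 CPM, the collagenase Mmp8 at 125.6 and 206.9 CPM, the chitinase-like Chil3 at 1143.9 and 1100.7 CPM, and the granulocyte colony-stimulating factor receptor Csf3r at 150.7 and 118.4 CPM. Cd177, a surface protein of neutrophils, was at 226.7 and 146.0 CPM.

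These transcripts were set beside the neutrophils of the same library (S100a8 and S100a9 at 1% or more of UMIs). The rule caps S100a8 and S100a9 in the monocytes, so cells with much neutrophil RNA could not be chosen. Ngp, Camp, Lcn2, Ltf, Retnlg and Wfdc21 in the SCD monocytes were at 0.721%, 0.725%, 1.02%, 1.01%, 0.956% and 1.38% of their SCD neutrophil level. In wild-type monocytes the same genes lay at 0.186%, 0.177%, 0.262%, 0.255%, 0.214% and 0.229% of the wild-type neutrophil level. The percentages of these 6 genes thus lay in a narrow band within each library, and the band was higher in SCD. Chil1 stood above that band in SCD, at 18.6% of the neutrophil level (17.1% to 20.2%), while in wild-type it was at 0.320% (0.0660% to 0.935%). Ctse reached 62.2% (56.8% to 68.0%) in SCD and 29.4% (16.8% to 47.7%) in wild-type. Mmp8 was at 12.5% and 11.8%, Chil3 at 48.5% and 24.9% and Hp at 39.5% and 73.6%. F10, described below, was at 1212.1% of the neutrophil level in wild-type and at 1616.5% in SCD.

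**Figure D3:**
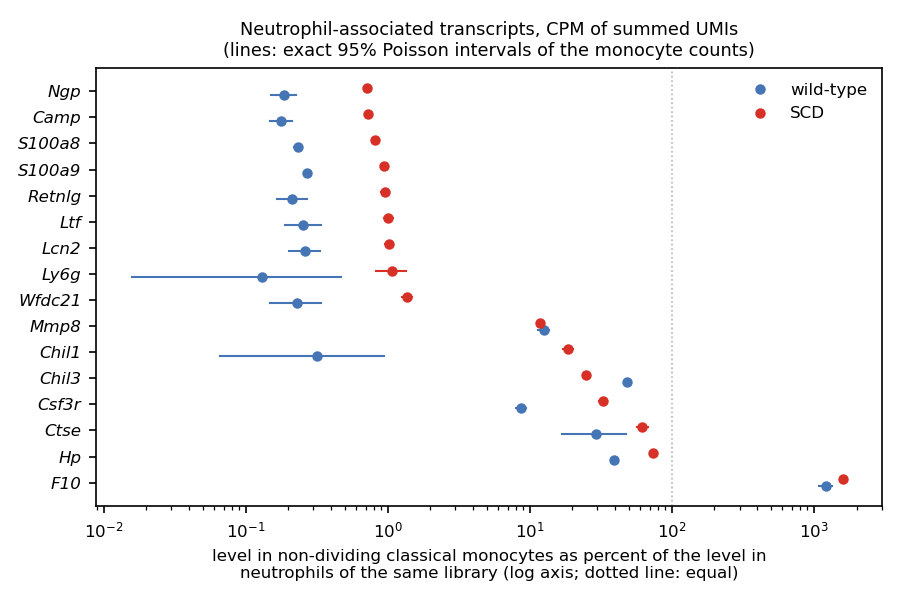
Level in non-dividing classical monocytes as percent of the level in neutrophils of the same library (log axis), wild-type in blue and SCD in red, with exact 95% Poisson intervals of the monocyte counts. Ngp, Camp, Lcn2, Ltf, Retnlg and Wfdc21 lie together near 0.2% in wild-type and near 1% in SCD, while Chil1 and Ctse in SCD lie at 18.6% and 62.2%.

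Cells thinned to 2000 UMIs each gave the shares of cells with a UMI at 1 common depth. Ngp was found in 4.62% of the 368 wild-type monocytes and in 35.0% of 628 from SCD. The same share in plasmacytoid DCs, which should lack Ngp, was 6.03% and 43.1%, at median depths of 11162 and 9174 UMIs before thinning. Plasmacytoid DCs had no cap on S100a8 and S100a9, and 11.4% and 7.43% of them were called doublets, so they are not a matched background. The Ngp share in the monocytes did not exceed theirs and is not read as expression. Camp, at 6.25% and 41.9% in the monocytes, stood against 6.57% and 53.8% in plasmacytoid DCs. Ctse, at 1.09% and 12.7%, stood against 1.07% and 20.7% of plasmacytoid DCs. Chil1 was found in no wild-type cell (0 of 368 cells, up to 0.997%) and in 12.9% of the SCD cells (10.4% to 15.8%), above the 3.62% of SCD plasmacytoid DCs and the 2.79% of SCD conventional DCs. Without thinning, a UMI was found in 23.9% and 92% (Ngp), 27.9% and 96.7% (Camp), 4.34% and 51.1% (Ctse) and 0.813% and 46.3% (Chil1) of the monocytes. Chil1 and Ngp were not concentrated in the same SCD cells. A Chil1 UMI was present in 11.8% of the 220 SCD cells with Ngp (7.87% to 16.8%) and in 13.5% of the 407 without (10.4% to 17.2%). Ngp and Camp gave the same picture, with Camp in 41.4% of the cells with Ngp and in 42.0% of those without. When the neutrophil profile of each library, scaled to Camp, Ngp and Ltf, was subtracted from the summed counts, it took away 0.191% of the UMIs in wild-type and 0.757% in SCD. The scaling itself takes Camp, Ngp and Ltf under the expression minimum, along with Lcn2, Retnlg and Wfdc21, which had lain in the same band. The fall of the list median to 0.63 thus largely restates that band. Past 2-fold higher were then 15 genes, 14 of them also among the 20 past it without subtraction. Chil1 and Ctse were past 2-fold after the subtraction. Ctse was at 94.6 CPM in SCD plasmacytoid DCs, above its 62.6 CPM in the SCD monocytes.

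Hemoglobin alpha (Hba-a1) had 313 and 3921 UMIs, or 76.1 CPM in wild-type and 504 CPM in SCD cells, although the labels name Hbatm1Paz on both alleles of both mice. Whether such reads come from the human globin transgene, which the mice carry in different dose, was not tested. The 75th percentile of thinned cells was 0 in both, and single cells reached 119 and 199 of 2000 UMIs. The beta-globin gene Hbb-bs lay the other way, at 72.4 and 16.2 CPM. The study gives its SCD mice as Hbb-/- and the controls as Hbb+/-, so the mice differed at the beta-globin locus itself. Hbb-bs was lower in SCD in other cells too. It was at 633.4 and 3.07 CPM in non-classical monocytes, 1023.9 and 8.69 CPM in neutrophils and 613.3 and 5.89 CPM in conventional DCs. Hba-a1 and Hbb-bs were the only 2 expressed genes of the 10 erythroid markers. The markers summed to 201.5 and 628 CPM, mostly Hba-a1 in SCD, and the erythroid factor Klf1 had 2 and 18 UMIs. The part of red cell RNA in this was not tested.

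A second group of genes higher in SCD consisted of single genes of several functions. F10, which encodes coagulation factor X, was at 90.4 CPM in wild-type (81.5 to 100.1) and 231 CPM in SCD cells (220 to 242), a ratio of 2.55 (2.28 to 2.86). It was found in 14.7% and 35.8% of the thinned cells, against 0.536% and 0.362% of plasmacytoid DCs. The F10 shares before thinning were 46.9% and 83.3%. F10 thus lay well over the background in both libraries. The other 3 expressed genes of coagulation and fibrinolysis, Plaur, S100a10 and Anxa2, had log2 ratios of -0.50, -0.42 and -0.03. Metallothionein 1 (Mt1), which binds zinc and is induced by metals and stress, rested on 63 and 669 UMIs, or 15.3 and 86.0 CPM. Mt1 was higher in SCD in other cells too, with log2 ratios of 1.20 in plasmacytoid DCs, 1.145 in neutrophils and 0.89 in conventional DCs. Stathmin (Stmn1), a microtubule regulator high in proliferating cells, was at 10.9 and 70.7 CPM. It was also higher in SCD plasmacytoid DCs (30.97 and 337 CPM) and neutrophils (82.25 and 207.5 CPM), but not in SCD dividing monocytes (1220.1 and 883.4 CPM). In SCD, 89.3% of the 627 thinned cells outside the immunoglobulin-rich ones held no Stmn1 UMI. With no division UMI allowed, Stmn1 was under the expression minimum. It was 1 of 6 expressed replication and mitosis genes outside the rule, and the other 5 lay between -0.28 and 0.50 on the log2 scale. The median of the 6 was 0.18 and that of the 27 genes with 20 UMIs in either library 0.55, and with no division UMI allowed the median was -0.15. Cathepsin L (Ctsl), a lysosomal protease, was at 28.4 and 77.3 CPM and Pkib, an inhibitor of protein kinase A, at 40.3 and 91.7 CPM. CT010467.1 and Gm8797 had ratios of 3.09 (2.91 to 3.29) and 2.35 (1.97 to 2.81). The rise of CT010467.1 was not limited to these cells. Its log2 ratio was 0.50 in dividing and 1.26 in non-classical monocytes, 0.64 in neutrophils, 1.195 in plasmacytoid DCs and 1.22 in conventional DCs. Gm8797 had log2 ratios of 0.86 in plasmacytoid DCs and 0.66 in conventional DCs, and of -0.23 in neutrophils.

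Macrophage genes differed in both directions. Of 12 expressed macrophage differentiation genes, 2 were past 2-fold higher (Ctsl and Trem2, against 0.647% of all genes) and 2 lower (Apoe and Maf, against 1.55%), with a list median of 0.04. Trem2, a lipid-sensing receptor of tissue macrophages, was at 38.9 CPM in wild-type and 86.9 CPM in SCD cells and occurred in 7.34% and 15.6% of thinned cells. Cathepsin D (Ctsd) was at 147.3 and 298.2 CPM (log2 ratio 0.99). Apolipoprotein E (Apoe) lay the other way, with 2172.1 CPM in wild-type and 794.7 CPM in SCD, as did the transcription factor Maf with 89.2 and 35.2 CPM. The defining genes of red pulp macrophages were low in both libraries, with 22 and 5 UMIs of Spic, 17 and 4 of Vcam1 and 19 and 14 of Cd163.

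The genes of heme handling and of the antioxidant factor NRF2, which free heme activates, lay mostly within 2-fold. Of 12 expressed heme and iron genes, none was past 2-fold higher (0.647% of all genes were) and 1 was lower (1.55% of all genes), with a median of 0.01 (-0.18 to 0.14). Heme oxygenase 1 (Hmox1), which degrades heme, was at 143.4 CPM in wild-type and 113.9 CPM in SCD cells. Ferritin light chain (Ftl1) and heavy chain (Fth1), which store iron, had log2 ratios of 0.33 and 0.03. The gene past 2-fold was transferrin (Trf), at 282.4 and 121.7 CPM. The exporter of iron, Slc40a1, had 28 and 22 UMIs, under the minimum. Of 14 expressed NRF2 target genes none was past 2-fold, but 11 of them lay above the median of all genes. Their median was 0.09 (-0.02 to 0.23). Thioredoxin (Txn1) had the highest ratio, 0.73, and the pentose phosphate enzymes Tkt and Pgd followed at 0.45 and 0.47. Nqo1, a target gene often used as a readout, had 0 and 5 UMIs.

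Most cells held no Hmox1 UMI after thinning. It was found in 13.9% (wild-type) and 17.99% (SCD). Before thinning these shares were 43.6% and 56.9%. Of its 110 and 169 UMIs in thinned cells, 1 cell per library held 33 and 24.

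Immediate early genes, which cells switch on within minutes of a stimulus or of handling, were lower in SCD as a group. Of 16 expressed members, 8 were past 2-fold lower (against 1.55% of all genes) and none higher, and all 16 lay below the median of all genes. Their median log2 ratio was -1.02 (-1.19 to -0.83). Of the 16, 6 passed the minimum only in wild-type, Dusp1, Fos, Jun and Nr4a1 among them. Over the 25 genes of the list with 20 UMIs in either library the median was -0.91. The phosphatase Dusp1, which ends MAP kinase signals, was at 84.3 CPM in wild-type and 3.34 CPM in SCD cells. Fos, a subunit of the transcription factor AP-1, was at 252 and 23.4 CPM, and its partner Jund at 293 and 52.1 CPM. Jun, another AP-1 subunit, and Nr4a1 had log2 ratios of -1.10 and -1.32. The NF-kappaB inhibitor Nfkbia and the factor Klf6 followed with -1.21 and -1.22. The smallest difference was that of Btg1, at -0.15.

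Fos was found in 37.2% of the thinned wild-type cells (32.3% to 42.4%) and in 5.57% of the SCD cells (3.91% to 7.67%). In plasmacytoid DCs, with free RNA of the same suspension, the Fos share was 4.42% and 0.181%. Dusp1 was found in 16.0% and 0.796% of the monocytes and in 3.89% and 0.544% of plasmacytoid DCs. Without thinning the monocyte shares were 72.6% and 20.7% for Fos and 37.9% and 3.98% for Dusp1. Within the wild-type library, Dusp1 was present in 25.7% of the cells with Fos (18.6% to 33.9%) and in 10.0% of those without (6.47% to 14.7%). Fos and Dusp1 were lower in SCD in other cells of the suspension too. On the same scale, the log2 ratio of Fos was -4.62 in neutrophils, -1.80 in plasmacytoid DCs, -0.84 in conventional DCs, -2.34 in non-classical and -1.21 in dividing monocytes. That of Dusp1 was -4.15, -1.83, -1.32, -2.20 and -0.51 in the same order. In dividing monocytes Dusp1 was at only 7.27 and 3.64 CPM, near the 5 CPM added. Both animals were processed as 1 suspension each, so handling and genotype cannot be told apart.

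Upstream sequences of the immediate early genes are shown because these genes were lower together, and because cAMP response elements and serum response elements are known control sites of such genes. The 170 bases before the start are given 5′ to 3′ on the strand of the gene, from RefSeq (build GRCm38.p6), in lower case with motif matches in capitals. The motifs searched were TGACGTCA (cAMP response element, its own reverse complement) and the CArG box (a pair of C, a run of 6 letters that are A or T, and a pair of G, searched on both strands). They do not overlap in these windows. Dusp1 lies at chr17:26508473-26508642 on the minus strand, Btg2 at chr1:134079156-134079325 (minus), Zfp36 at chr7:28379229-28379398 (minus) and Fos at chr12:85473720-85473889 (plus).
Dusp1: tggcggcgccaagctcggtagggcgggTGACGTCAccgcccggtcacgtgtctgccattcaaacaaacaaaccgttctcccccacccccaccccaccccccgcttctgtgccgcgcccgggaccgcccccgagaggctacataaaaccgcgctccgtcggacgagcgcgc
Btg2: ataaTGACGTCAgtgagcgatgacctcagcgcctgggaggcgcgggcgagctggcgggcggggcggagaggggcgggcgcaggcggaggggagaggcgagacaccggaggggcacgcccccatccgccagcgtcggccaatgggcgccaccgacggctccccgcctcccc
Zfp36: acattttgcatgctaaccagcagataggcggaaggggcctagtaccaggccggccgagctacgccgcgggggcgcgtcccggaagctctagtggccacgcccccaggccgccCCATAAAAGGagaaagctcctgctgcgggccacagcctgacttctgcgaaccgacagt
Fos: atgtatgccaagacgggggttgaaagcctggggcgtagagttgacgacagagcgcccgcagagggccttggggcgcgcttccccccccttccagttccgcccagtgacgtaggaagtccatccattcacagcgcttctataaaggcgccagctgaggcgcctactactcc

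The cAMP response element of Dusp1 began 143 bases before the start, that of Btg2 166 bases before it, and the CArG box of Zfp36 58 bases before it. In the window of 250 bases before to 50 after the start, TGACGTCA was present in 2 of the 15 expressed immediate early genes with a RefSeq window (13.3%) against 3.43% of the 2507 expressed genes and 2.03% of all 27025 genes with one. The CArG box was present in 1 of the 15 (6.67%), against 2.15% of the expressed genes and 1.81% of all. Fos, shown for its low level in SCD, held neither string of letters in its window. Only exact matches within that window were searched, so this does not show that Fos lacks such elements. Btg2 and Zfp36 themselves had log2 ratios of -0.65 and -0.86.

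Some genes of DC-like and non-classical fates had low ratios. Of 5 expressed genes of the monocyte-derived DC lineage, 4 were past 2-fold lower (against 1.55% of all genes), but all 4 passed the minimum only in wild-type, where they are high. The list median was -1.66 (-1.89 to -1.43). Over the 13 genes of the list with 20 UMIs in either library it was -1.37. Cd209a, a C-type lectin of DC-like monocytes, was at 174 CPM in wild-type (162 to 188) and at 18.4 CPM in SCD cells (15.5 to 21.7). Batf3 and Irf4, transcription factors of DC development, were at 73.6 and 69.5 CPM in wild-type and at 18.5 and 23.8 CPM in SCD. Cd7 was at 110 and 31.2 CPM. In wild-type conventional DCs Batf3 and Cd7 were higher than in the monocytes, at 246 and 312 CPM. The 10 conventional DC markers, Cd209a and Clec10a among them, summed to 362.3 and 151.2 CPM in the monocytes, with 1 and 4 UMIs of Xcr1 and 36 and 39 of Clec9a, and conventional DCs were 24.2% and 5.59% of filtered cells. Their part in these ratios was not tested. The exception was Clec10a, a lectin of DCs and macrophages, at 126.4 and 116.3 CPM.

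Of 10 expressed non-classical monocyte genes outside the rule, 3 were past 2-fold lower (against 1.55% of all genes) and the median was -0.70 (-0.85 to -0.60). Of the 10, 3 passed the minimum only in wild-type and 1 only in SCD, and over the 19 genes with 20 UMIs in either library the median was -0.53. Tppp3, a tubulin-binding protein, had the lowest ratio, with 282 CPM (1159 UMIs) and 16.3 CPM (127 UMIs). Hpgd, which inactivates prostaglandins, was at 251 and 74.3 CPM. The fractalkine receptor Cx3cr1 and the integrin Itgal had log2 ratios of -0.56 and -0.96. Gngt2 and Pglyrp1 were higher in SCD, by 0.66 and 0.43 on that scale. The rule allowed up to 2 UMIs of Ace, Cd300e and Adgre4, and at least 1 was held by 50.1% of cells in wild-type and by 29.6% in SCD.

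The wild-type cells were not uniform in these genes. Cd209a was found in 49 of the 365 thinned wild-type cells that were not immunoglobulin-rich, and 10% of the cells held 90.2% of its UMIs. A Cd7 UMI was present in 38.8% of the cells with Cd209a (25.2% to 53.8%) and in 1.90% of the 316 without (0.6999% to 4.09%). Cd74, the invariant chain of MHC class II, was present in 55.1% and 33.2%. Apoe differed the other way, in 16.3% of the cells with Cd209a (7.32% to 29.7%) and in 68.4% of those without (62.9% to 73.5%). Chil3 did so too, in 14.3% (5.94% to 27.2%) and 64.2% (58.7% to 69.5%). Batf3 occurred at overlapping shares in both.

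**Figure D4:**
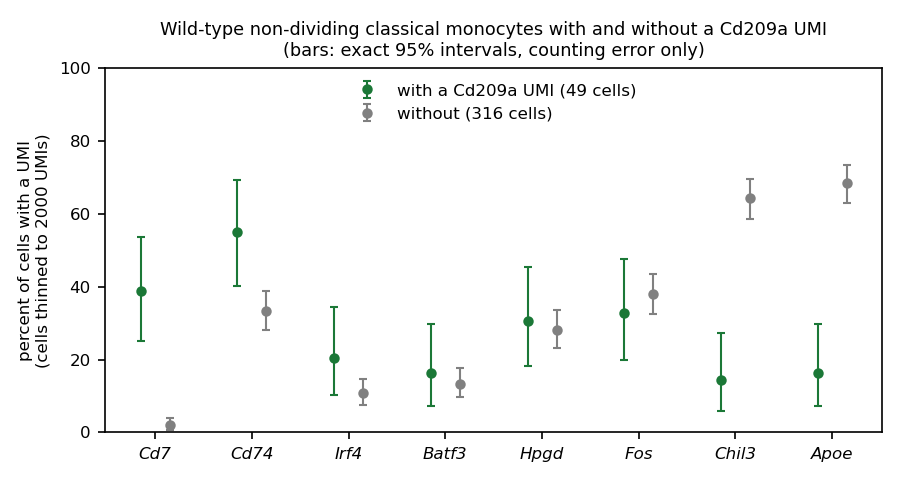
Percent of wild-type non-dividing classical monocytes with a UMI of 8 genes (vertical axis, cells thinned to 2000 UMIs), for 49 cells with a Cd209a UMI (green) and 316 cells without (grey), with exact 95% intervals. Cd7 lies higher in the Cd209a cells (38.8% against 1.90%) and Apoe and Chil3 lower (16.3% against 68.4% and 14.3% against 64.2%).

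The Cd209a cells also carried Flt3, the receptor of DC precursors, in 30.6% of cells against 1.90%. Lyz2 had a mean of 33.8 UMIs in them (32.2 to 35.5) and of 64.0 in the others (63.1 to 64.9), Csf1r of 0.551 and 1.21, and Fn1 of 3.35 and 5.54. Ccr2 was the same in both, at 3.22 and 3.22 UMIs per cell. The part of DC precursors among these cells was not tested. In the SCD library 13 of 627 thinned cells held Cd209a, of which 6 held Cd7, 4 Apoe and none Chil3. The pattern in those 13 cells could not be told from that in the wild-type cells at this number. In plasmacytoid DCs a Cd209a UMI was found in 41.4% and 19.2% of cells, more often than in the monocytes (13.3% and 2.07%), and in neutrophils in 1.79% and 0.298%.

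**Figure D5:**
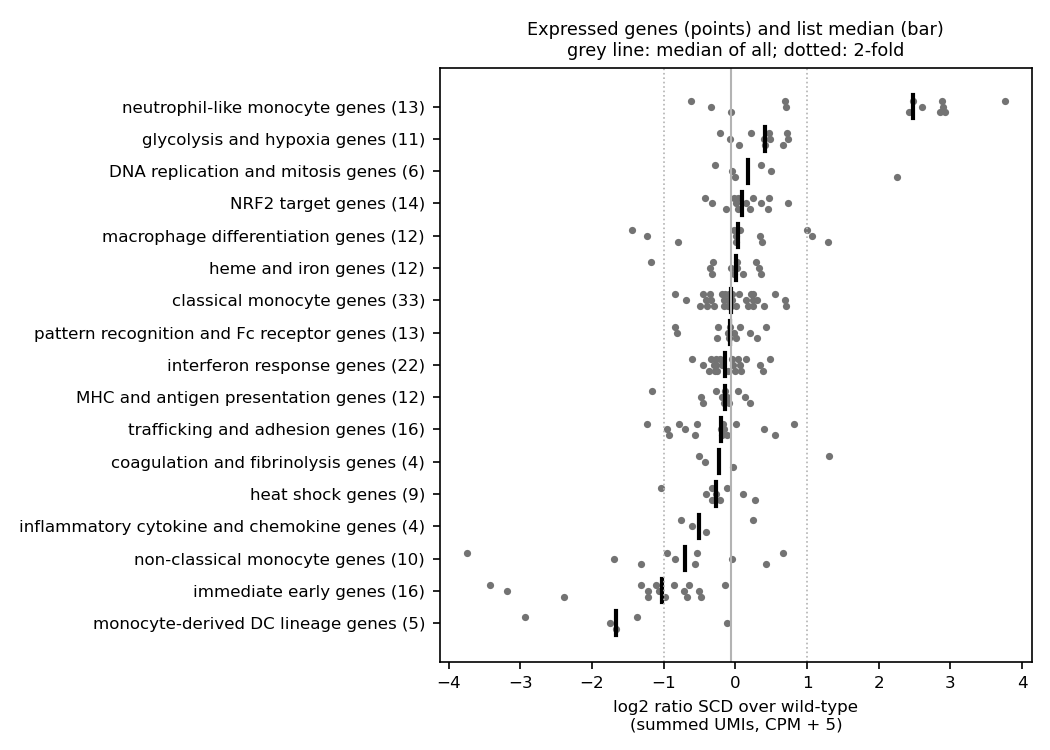
Log2 ratio (SCD over wild-type, horizontal axis) of each expressed gene (points) in 17 gene lists, with the list median as a black bar, the number of expressed genes in brackets, the median of all genes as a grey line and 2-fold as dotted lines. Neutrophil-like genes (median 2.48) lie furthest right and monocyte-derived DC lineage (-1.66) and immediate early genes (-1.02) furthest left, while classical monocyte genes centre at -0.06.

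The remaining lists lay closer to the median of all genes. No gene of the 33 expressed classical monocyte genes was past 2-fold, and their median was -0.06 (-0.11 to -0.01). Within them, Ms4a6d was at 106.0 and 173.9 CPM and the myeloid factor Cebpa at 148.5 and 80.8 CPM. None of the 22 expressed interferon response genes was past 2-fold (median -0.15, -0.28 to 0.01), with Ifi27l2a at 0.39 and Bst2 at -0.60. None of the 11 expressed glycolysis and hypoxia genes was past 2-fold either, but 9 of them lay above the median of all genes, with a list median of 0.42 (0.32 to 0.55). Over the 21 genes with 20 UMIs in either library it was 0.22. Gapdh was at 603.9 and 1000.2 CPM and Mif, a cytokine induced by hypoxia, at 76.8 and 130.7 CPM.

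The heat shock, antigen presentation and trafficking lists each held 1 gene past 2-fold lower, against 1.55% of all genes. Among 9 expressed heat shock genes the co-chaperone Dnaja1 was past 2-fold lower (210.5 and 100.2 CPM) and the median was -0.27. Among 12 expressed genes of antigen presentation outside the rule, Cd74 was past 2-fold lower, at 533.9 and 236.5 CPM. Cd74 was also lower in SCD neutrophils, at 1910.0 and 293.6 CPM, while conventional DCs held 22320.9 and 19983.7 CPM. The part of free RNA in the Cd74 ratio was not tested. The class I genes H2-K1 and H2-D1 had ratios of -0.15 and -0.09. Of 16 expressed trafficking and adhesion genes 1 was past 2-fold lower, the adhesion molecule Icam1 (56.4 and 21.2 CPM). The integrin Itga4 and the hyaluronan receptor Cd44 had log2 ratios of -0.70 and -0.93, and the chemokine receptor Ccr1 had one of 0.82. The 13 expressed pattern recognition and Fc receptor genes had a median of -0.07 and the 4 expressed cytokine and chemokine genes of -0.51, with none past 2-fold. Over the 15 cytokine and chemokine genes with 20 UMIs in either library the median was -0.24. Of the cytokine genes, Il6, Ptgs2, Cxcl2, Il12b and Nos2 had 0 UMIs in both libraries.

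Further genes low in SCD belonged to no list that was led by them. Rfx2, a transcription factor of ciliated cells, had 220 UMIs in wild-type and 9 in SCD cells, or 53.5 and 1.16 CPM. Rfx2 was found in 11.4% of the thinned wild-type and none of the thinned SCD cells (0 of 628 cells, up to 0.586%), and in 2.55% of wild-type plasmacytoid DCs. Dusp6, which switches off the kinase ERK, was at 173 and 37.4 CPM. Tsc22d3, a gene induced by glucocorticoids, was at 194 and 54.1 CPM. The metalloprotease-like Amz1 and the membrane protein Emp1 had ratios of 0.155 (0.119 to 0.1996) and 0.215 (0.178 to 0.259), and Fam102b one of 0.266 (0.231 to 0.306). In non-classical monocytes the log2 ratios were -2.59 (Rfx2), -0.84 (Dusp6), -1.68 (Tsc22d3), -1.62 (Amz1), -0.96 (Emp1) and -0.90 (Fam102b). In neutrophils they were -0.86, -1.27, -2.39, -2.38, -0.06 and -0.42 in the same order. Emp1 was higher in SCD dividing monocytes, with a log2 ratio of 1.08. Jchain was at 647 and 50.4 CPM, through the immunoglobulin-rich cells, and with these left out it was under the expression minimum.

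Spread among the cells was described by the variance over the mean (Fano factor) of thinned counts, with a median over 3081 genes of 1.035 in wild-type and 1.03 in SCD. Globin and immunoglobulin genes were left out, of which Igkc and Hba-a1 had higher values than the genes named here. Of the others, Jchain came first, followed by Apoe, Lyz2, Hmox1, Chil3, CT010467.1, Cd74, Crip1, Ifi27l2a and Actb. Apoe had a Fano factor of 8.16 in wild-type and 7.78 in SCD cells, with means of 4.73 and 1.77 UMIs per cell. Lyz2 had 10.6 and 6.78 at means of 59.4 and 49.8, and Chil3 5.56 and 4.52 at means of 2.45 and 2.31. Apoe was absent from 38.6% of cells in wild-type and from 61.2% in SCD. Cells with Hpgd more often held Apoe than cells without, at 74.0% against 56.3% in wild-type and at 68.1% (56.0% to 78.6%) against 35.0% (31.0% to 39.1%) in SCD.

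The cells were last set beside the 2 monocyte sets most like them, over the genes that were furthest above each set in both libraries. Against dividing monocytes these were Apoe (log2 ratios of 6.60 in wild-type and 3.76 in SCD), Hpgd (4.57 and 2.77), Jchain, Gm9733 (1.90 and 2.17) and Sirpb1c (2.87 and 1.77). The wild-type dividing set held only 37 cells, with 12 Apoe UMIs. Against non-classical monocytes they were Jchain, Cd7 (3.92 and 2.47), the chemokine receptor Ccr1 (2.27 and 2.12), Cd209a (4.19 and 2.02) and galectin 1 (Lgals1, 1.98 and 1.87). Because the rule itself separates these sets, such ratios are a description.

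The direction between SCD and wild-type was often shared by the neighbouring sets. Chil1, Ctse, Ngp, Camp, Ltf, Lcn2, Retnlg, Wfdc21 and Mt1 were past 2-fold higher in dividing and in non-classical monocytes too. For Chil1 the log2 ratio was 2.93 and 4.02 in these sets. This direction was not limited to monocytes. The same genes were past 2-fold higher in plasmacytoid DCs, and all but Mt1 in conventional DCs. There the log2 ratio was 4.27 and 3.38 for Ngp, and 2.295 and 1.41 for Chil1. Tppp3, lower by 3.75 in the cells described here, was at -0.48 in dividing and -2.43 in non-classical monocytes, and Batf3 at 0.09 and -1.14. In dividing monocytes both genes lay near the 5 CPM added to each value, so their ratios there cannot show a difference. Tppp3 was at 8.73 and 4.86 CPM and Batf3 at 5.82 and 6.475 CPM in that set. Whether any of these differences between sets exceeds that between animals was not tested.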

How the data were processed

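Single-cell suspensions of 2 spleens, 1 per group, were sequenced with 10x Genomics 3′ v3.1 chemistry. The deposited values are UMI counts per gene and cell that the authors made with Cell Ranger; the submitters' processing notes name version 4.0.0 and the build GRCm38.p6, and the counts were not normalized or filtered further. Groups came from the sample labels. Cells were filtered with the thresholds of the study's methods (500 to 5000 genes, under 15% mitochondrial and 30% ribosomal UMIs), which left 9424 and 10636 cells, close to but not the same as the numbers the study gives, and chosen by the rule given above. The rule and the gene lists were chosen with earlier results of these data known, and the division of cells rests on their own counts.

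UMIs were summed over the chosen cells of a library and expressed as CPM. Genes that reached both 20 UMIs and 50 CPM in either library counted as expressed; genes of the rule (27), mitochondrial and ribosomal protein genes were left out. Log2 ratios used a pseudocount of 5 CPM, which understates the change of low genes. The named genes were the 15 highest and 15 lowest ratios, leaving out globin, sex-linked, T cell receptor and immunoglobulin genes (Jchain is not one of these), plus up to 6 genes per list described (most UMIs and largest ratio), the 10 highest Fano factors in both libraries by mean rank and the 5 genes furthest above each like set. Genes named beyond these, such as markers, Flt3 and single list members, were chosen after their values were seen. The interval of a list median is the median of its genes' bounds. Shares used cells thinned to 2000 UMIs, which left out 1 wild-type cell. Shares have Clopper-Pearson and counts Poisson 95% intervals, and ratios exact conditional ones, for counting error only. Droplets can share free RNA, so shares stand beside those of plasmacytoid DCs (at least 10 Siglech UMIs), conventional DCs (MHC class II genes at 1% or more) and neutrophils. Doublets were called with Scrublet (scanpy 1.11.5, expected rate 8%, genes in at least 20 cells) and kept, except in an alternative. The ratio code was checked on drawn counts with known changes. Work was done with pandas 2.3.3, scipy 1.17.1, numpy 2.4.6 and matplotlib 3.10.9 under Python 3.11.15. Single genes of some lists are not reported here.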

Additional observations from a re-analysis of the deposited data

Results flagged for a closer look

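Apoe was lower in SCD non-dividing classical monocytes (2172.1 and 794.7 CPM, log2 ratio -1.44) and higher in SCD dividing monocytes, where 12 and 399 UMIs gave 17.4 and 53.8 CPM and a log2 ratio of 1.39. The opposite directions were not tested. Hba-a1 was higher in the SCD cells described here (log2 ratio 2.65) and lower in SCD non-classical monocytes, at 365 and 96.0 CPM with a log2 ratio of -1.87, which was not tested either. Outside the filters, 3 SCD cells and no wild-type cell with over 5000 genes met the rest of the rule, of 1222 and 296 such cells.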

How the results depend on the processing

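The share ratio of 1.51 turned to 0.649 with no division UMI allowed, and moved to 1.26 with at least 1000 genes per cell and to 2.72 over cells other than neutrophils. It stayed between 1.37 and 1.56 under the other alternatives. The number of genes past 2-fold was 55 higher and 111 lower without a CPM minimum (9750 genes) and 8 and 27 at 100 CPM (1509 genes), and 43 higher when the rule was applied to cells thinned to 3000 UMIs. Scaling by median of ratios gave 24 higher and 44 lower in place of 20 and 48. The non-classical list median of -0.70 was -0.53 without a CPM minimum and -0.53 as a mean over cells, and -0.57 with no division UMI. The monocyte-derived DC median of -1.66 was -1.28 with a pseudocount of 20 CPM, -1.37 without a CPM minimum and -1.36 as a mean over cells. The neutrophil-like median of 2.48 was 1.79 with a pseudocount of 20 CPM, 0.87 without a CPM minimum, 0.71 at 100 CPM and 0.63 after subtraction of the neutrophil profile, which was chosen after seeing the data, as was leaving out the immunoglobulin-rich cells. The replication and mitosis median of 0.18 ranged from -0.15 (no division UMI) to 1.63 (rule on thinned cells), that of glycolysis and hypoxia from 0.22 to 0.52 and that of cytokines and chemokines from -0.71 to -0.24. The immediate early median ranged from -1.13 to -0.84. Jchain turned to 2.74 with no division UMI, and the other 29 named genes kept their direction wherever they were expressed. The causes of these moves were not tested. No paired analysis was possible because 1 mouse stood for each genotype.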
